A study of Danio rerio with 30 samples.

Results

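The 200 maternal mRNAs whose level dropped most in zebrafish embryos without zygotic transcription were examined across 30 RNA-seq libraries. They were chosen by measured values. A gene was eligible when its level at 0 and 1 h post-fertilization (hpf) in untreated Ribo-Zero libraries averaged at least 20 TPM, a length-scaled share of the transcripts in a library, which held for 7087 of the 35117 genes in the tables. The members are the 200 eligible genes with the lowest log2 ratio of the mean TPM at 6.5, 7 and 7.5 hpf to the mean TPM at 3, 3.5 and 4 hpf in embryos injected with alpha-amanitin, with 0.1 TPM added to both means. The other 6887 eligible genes serve as the background.

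The alpha-amanitin series has 12 poly(A)-selected libraries from 2 to 7.5 hpf, one library every 0.5 h, from embryos injected at the single-cell stage at 200 ng/µl. Alpha-amanitin is a mushroom toxin that blocks RNA polymerase II. Wild-type, untreated embryos were profiled hourly from 0 to 8 hpf in 9 poly(A)-selected libraries and 9 Ribo-Zero libraries, in which ribosomal RNA is removed and the remaining RNA is kept whatever its tail. All libraries come from pooled whole early embryos, and no strain was given. Each time point has 1 library of each kind, so there are no replicates, and the errors given below are the scatter of libraries around a line over time.

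An egg is loaded by the mother with mRNAs that direct the first divisions, while the embryo's own genome is silent. During the maternal-to-zygotic transition (MZT) these transcripts are removed, partly by factors already in the egg and partly by factors that the embryo itself transcribes, and new transcripts replace them. With transcription blocked, the maternal route is left and transcripts are not renewed. Because the treated embryos were profiled only after selection on the poly(A) tail, removal of an mRNA and shortening of its tail cannot be told apart in that series, and in whole embryos fewer cells holding an mRNA and less mRNA per cell cannot be told apart either.

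The libraries had 11919 to 16194 genes at a TPM of at least 1. TPM values carry no read depth and are printed without a counting error. The block of transcription could be read from zygotic markers: ta (the mesoderm regulator Brachyury) reached 647 TPM in wild-type poly(A) libraries and at most 0.17 TPM after alpha-amanitin, vox 215 against 0.17 TPM, sox32 52.2 against 0.07 TPM and krt4 2419 against 0.95 TPM. The maternal transcript buc, which organizes germ plasm, was present at 337 to 1138 TPM in all 12 alpha-amanitin libraries. Of 13 markers of follicle cells, sperm and blood, 8 were below 1 TPM in every alpha-amanitin library, and the summed level of all 13 stayed between 2.52 and 6.99 TPM there.

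The log2 ratio that chose the members ran from -5.80 to -3.34 with a median of -3.82, against a median of -0.12 for the other eligible genes. These values are a description, because they made the choice. The last genes inside were TIMM21 at -3.35, toporsa at -3.34 and znf991 at -3.34, and the first outside were traf3 at -3.33, cratb at -3.33 and tmem203 at -3.32, so the border does not mark a gap. The members were not unusually abundant in the egg: their mean Ribo-Zero level at 0 and 1 hpf had a median of 50.5 TPM, against 52.1 TPM for the other eligible genes. A descriptive symbol was listed for 157 members, and the other 43 carry a clone-like symbol or an identifier only.

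The members held their level until 3.5 hpf, began to drop by 4 hpf and lost most of it by 5.5 hpf. The values at 3 to 4 hpf and from 6.5 hpf on made the choice, and the hours between were not used in it. A fall across the hours between is still partly built in by the choice. After alpha-amanitin the median level of the members was 44.1 TPM at 2 hpf, 46.8 TPM at 3 hpf, 48.7 TPM at 3.5 hpf and 41.4 TPM at 4 hpf. It was then 26.0 TPM at 4.5 hpf, 13.4 TPM at 5 hpf, 5.97 TPM at 5.5 hpf, 4.93 TPM at 6 hpf and 2.17 TPM at 7.5 hpf. The median of the other eligible genes stayed between 44.0 and 63.5 TPM over the same libraries. Step by step, the median log2 change of the members was -0.29 from 3.5 to 4 hpf, -0.73 from 4 to 4.5 hpf, -0.94 from 4.5 to 5 hpf and -1.11 from 5 to 5.5 hpf, and then -0.38 from 5.5 to 6 hpf. The step from 3.5 to 4 hpf, between chosen hours, was negative in 182 of the 200 members, against 42.9% of the other eligible genes. The 3 steps from 4 to 5.5 hpf were negative in 197, 200 and 199 members, against 45.0%, 67.2% and 78.3% of the other eligible genes. Taking the mean of 2 and 2.5 hpf as 100%, so that only hours outside the choice are compared, 79 members (39.5%) were below 50% at 4.5 hpf and 167 (83.5%) at 5 hpf, against 4.60% and 9.54% of the other eligible genes. Together the members made up 1.74% of all TPM at 2 hpf and 0.0766% at 7.5 hpf. The plot of medians by hour shows this course beside that of wild-type embryos.

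**Figure D1:**
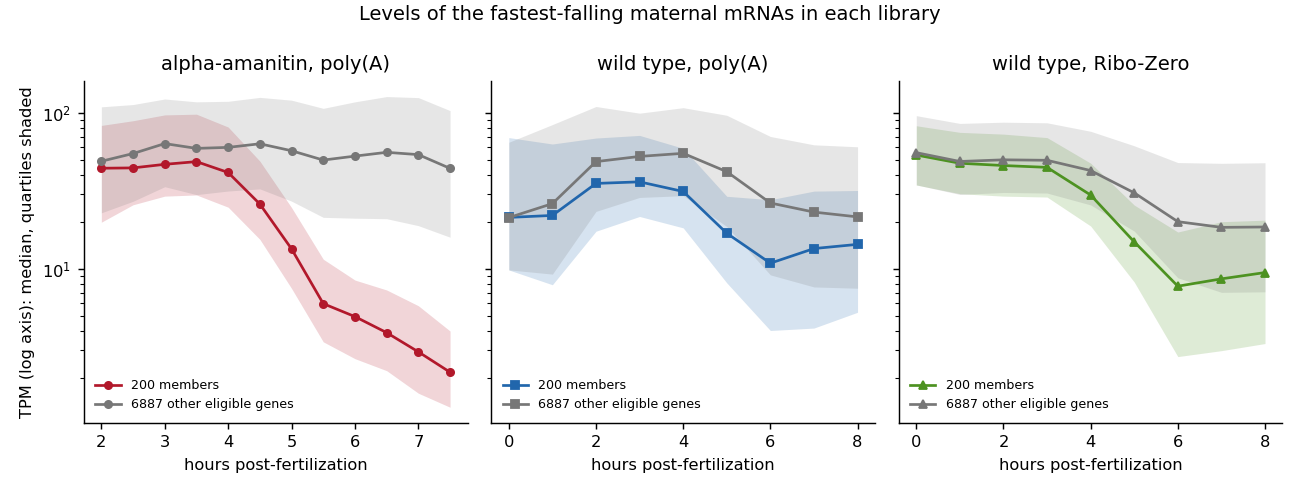
Median TPM (points, log axis) with the quartiles shaded for the 200 members (coloured) and the 6887 other eligible genes (grey) against hours post-fertilization, 1 library per point, in alpha-amanitin poly(A), wild-type poly(A) and wild-type Ribo-Zero libraries. After alpha-amanitin the median of the members goes from 41.4 TPM at 4 hpf to 5.97 TPM at 5.5 hpf while the grey line stays between 44.0 and 63.5 TPM, and in wild-type Ribo-Zero libraries it is lowest at 6 hpf, at 7.72 TPM.

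Whether a fall was seen outside the libraries that chose the members was tested in the 6 alpha-amanitin libraries the choice did not use, at 2, 2.5, 4.5, 5, 5.5 and 6 hpf. These lie between or before the hours that were used and come from the same series. A fall in them, and an excess of falls over other genes, is therefore largely built in by the choice. A line was fitted for every gene to log2(TPM + 0.1) against hours with limma, and a gene was called at a Benjamini-Hochberg adjusted p under 0.05. All 200 members had a negative slope. Of these, 186 fell past the threshold and 0 rose, against 20.6% of all 13940 genes tested and 23.1% of the other eligible genes called lower. The median slope of the members was -0.81 log2 units per hour, with quartiles of -0.95 and -0.63, against 0.03 for the other eligible genes. On a line this corresponds to a 50% loss every 1.24 h, but the course was not a line: with only 4.5 to 6 hpf in the fit the median slope was -1.66. The 14 members that missed the threshold include 5 of the 7 members of the znf zinc finger family. For these the poly(A) level was higher at 3 hpf, which is not in the fit, than at 2 hpf. An early rise was common: 40.5% of all members were lower at 2.5 than at 2 hpf, and 35.5% at 3 than at 2.5 hpf. Of these znf genes, znf991 was at 13.5 TPM at 2 hpf, 29.6 TPM at 3 hpf, 24.3 TPM at 4.5 hpf and 4.65 TPM at 6 hpf. Its slope was -0.32 ± 0.17 (SE) per hour with an adjusted p of 0.178. adob, which also missed it at an adjusted p of 0.25, jumped between 17.4 TPM at 4.5 hpf, a listing at 0 at 5 and 5.5 hpf and 5.23 TPM at 6 hpf.

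Wnt signalling is represented by 5 entries: wnt8a under 2 gene identifiers, axin2, gbp and znrf3. It is the pathway by which the zebrafish embryo first sets up its dorsal side and later its posterior body. The groups by role used from here on were drawn up after the membership was known, and the examples in them were picked with their values in view. Their counts are descriptions to be read against those of all 200 members, of which 93.0% fell after alpha-amanitin, 83.5% fell and 3.0% rose in wild-type Ribo-Zero libraries, and 57.5% fell and 9.5% rose in wild-type poly(A) libraries. For scale, 20.6% of all genes tested fell after alpha-amanitin and 51.4% in wild-type Ribo-Zero libraries. All 5 Wnt entries fell after alpha-amanitin. The lowest ratio of all belonged to wnt8a, a secreted Wnt ligand. After alpha-amanitin it was at 43.1, 32.7, 22.2, 30.1 and 19.3 TPM in the libraries of 2, 2.5, 3, 3.5 and 4 hpf, at 7.00, 5.14, 2.32 and 2.63 TPM in those of 4.5, 5, 5.5 and 6 hpf, at 0.55 and 0.44 TPM in those of 6.5 and 7 hpf, and was listed at 0 at 7.5 hpf. In wild-type embryos the same gene was at 27.2 TPM at 2 hpf, 21.6 TPM at 4 hpf, 30.6 TPM at 6 hpf and 113 TPM at 8 hpf in the Ribo-Zero libraries, so treated and untreated embryos went opposite ways from 4 hpf on. Its slope was -1.08 ± 0.08 per hour after alpha-amanitin (adjusted p = 0.000409) and 0.36 ± 0.08 in wild-type Ribo-Zero libraries (adjusted p = 0.00537). A second gene identifier also carries the symbol wnt8a and is the member of rank 12. The division of reads between both entries by the authors' counting is uncertain, and this second entry was at 0.21 to 13.1 TPM in wild-type Ribo-Zero samples of 2 to 8 hpf. Its slope of -0.91 ± 0.24 after alpha-amanitin (adjusted p = 0.0207) was -0.83 and not called without the library at 2.5 hpf.

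The scaffold axin2, a Wnt-induced inhibitor of the same pathway, was the member of rank 3. It was at 65.9 TPM at 3 hpf, 44.9 TPM at 4 hpf, 24.4 TPM at 4.5 hpf, 8.81 TPM at 5 hpf, 2.48 TPM at 6 hpf and 0.75 TPM at 7.5 hpf after alpha-amanitin. In wild-type Ribo-Zero libraries it went from 57.3 TPM at 3 hpf to 20.1 TPM at 5 hpf and was back at 51.1 TPM at 8 hpf. Its slope after alpha-amanitin was -1.10 ± 0.15 per hour (adjusted p = 0.00161). The wild-type Ribo-Zero slope from 2 to 8 hpf, another kind of library and window, was -0.10 ± 0.10 and did not pass the threshold (adjusted p = 0.373). In the direct test against wild-type poly(A) from 2 to 6 hpf, the slope difference of axin2 was -0.80 ± 0.24 (adjusted p = 0.0191). gbp, which encodes a GSK3-binding activator of the pathway, was at 134 TPM at 4 hpf and 13.2 TPM at 6 hpf after alpha-amanitin but at 130 and 73.0 TPM in wild-type poly(A) libraries at the same hours. The ubiquitin ligase znrf3, which removes Wnt receptors from the membrane, fell in both conditions and was at 42.4 TPM at 3 hpf, 0.96 TPM at 6 hpf and 4.87 TPM at 8 hpf in wild-type Ribo-Zero libraries.

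BMP signalling patterns the ventral side of the embryo. The type I receptor genes bmpr1ab and bmpr1ba, the oocyte ligand bmp15 and the BMP target id2a all fell after alpha-amanitin, with slopes between -0.81 and -0.53 per hour. bmpr1ab was at 14.9 TPM at 4 hpf and 1.01 TPM at 6 hpf after alpha-amanitin, and at 18.7, 14.3 and 20.3 TPM at 4, 6 and 8 hpf in wild-type Ribo-Zero libraries. bmpr1ba kept falling in wild type, with a Ribo-Zero slope of -0.93 ± 0.12 per hour (adjusted p = 0.000653), so the receptor genes parted in the untreated embryo. The call of bmp15 after alpha-amanitin was lost without the library at 2.5, 5.5 or 6 hpf, where its slope was -0.50, -0.46 and -0.44.

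Regulators that cells induce for a short time, many of them feedback inhibitors, formed a further group, in which the signalling kinase jak2b was also counted. All 10 fell after alpha-amanitin, with a median slope of -0.88 per hour, and 9 of them also fell in wild-type Ribo-Zero libraries, shares close to those of all members. With libraries scaled over maternal genes, which holds the median maternal mRNA near flat, 6 of the 10 fell there and 1 rose. nfkbiab, the inhibitor of NF-kB, was at 133 TPM at 3.5 hpf, 47.8 TPM at 4.5 hpf, 9.26 TPM at 5.5 hpf and 1.94 TPM at 7.5 hpf after alpha-amanitin. From 5 to 8 hpf it was between 35.02 and 45.2 TPM in wild-type Ribo-Zero libraries, where its slope of -0.24 became 0.05 with libraries scaled over maternal genes. mylipa, whose human counterpart is a ubiquitin ligase for lipoprotein receptors, was the third most abundant member in the egg and fell alike in all 3 profiles: it was at 228 TPM at 4 hpf and 16.8 TPM at 6 hpf after alpha-amanitin, at 135 and 25.1 TPM in wild-type poly(A), and at 238 and 25.1 TPM in wild-type Ribo-Zero. The difference of its slopes between treatments was 0.02 ± 0.20 (adjusted p = 0.951). ddit4, an inhibitor of mTORC1 signalling, kept 310 TPM at 4.5 hpf and was then at 126 TPM at 5 hpf and 34.3 TPM at 6 hpf after alpha-amanitin. The transcription factor mycb was at 46.9 TPM at 4 hpf and 4.75 TPM at 6 hpf, and the anti-apoptotic mcl1b at 230 and 33.7 TPM.

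Genome maintenance was the role of 14 members, all of which fell after alpha-amanitin, and 12 of them fell in wild-type Ribo-Zero libraries, again close to the shares of all members. With scaling over maternal genes 6 of the 14 fell in the Ribo-Zero libraries. pms2, a mismatch repair gene, was the member of rank 2 and followed nearly the same course in every profile. Its level after alpha-amanitin was 31.5, 20.1, 1.81 and 0.64 TPM at 3, 4, 5 and 6 hpf. In wild-type embryos the levels at these hours were 39.0, 21.6, 4.54 and 0.83 TPM by Ribo-Zero and 27.9, 13.9, 2.95 and 0.69 TPM by poly(A) selection. Its slopes were -1.29 ± 0.16, -1.26 ± 0.17 and -1.01 ± 0.18 per hour in that order. The telomere protein genes terf2ip and terf1 were not tested against each other. Their wild-type Ribo-Zero slopes were -0.15 ± 0.07 (adjusted p = 0.0972) and -0.62 ± 0.10 (adjusted p = 0.00111). terf2ip was at 4.27 TPM at 6 hpf after alpha-amanitin but at 48.2 TPM in wild-type poly(A), and its slope difference was -0.96 ± 0.16 (adjusted p = 0.00165), whereas for terf1 the levels were 25.5 and 33.6 TPM and the slope difference was -0.10 ± 0.23 (adjusted p = 0.747).

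Centrosome, kinetochore and cell cycle genes counted 14 members, of which 13 fell after alpha-amanitin and 12 in wild-type Ribo-Zero libraries, as all members did in like shares. In wild-type poly(A) libraries 6 of the 14 fell and 4 rose, where 38.5% of all genes tested fell and 27.1% rose. With scaling over maternal genes 5 fell in the Ribo-Zero libraries, and 1 fell and 5 rose in the poly(A) libraries. plk4, the kinase that starts centriole duplication, differed between the library kinds. It was at 12.9 TPM at 3 hpf, 4.06 TPM at 5 hpf and 1.59 TPM at 6 hpf after alpha-amanitin, at 14.1, 21.7 and 26.1 TPM in wild-type poly(A), and at 44.6, 21.9 and 17.2 TPM in wild-type Ribo-Zero. Its slopes were -0.64 ± 0.09, 0.27 ± 0.07 and -0.23 ± 0.06 per hour in these 3 profiles, the last of which was -0.19 and not called without the 2 hpf library and 0.06 with libraries scaled over maternal genes. The kinase cdk7 and its partner ccnh, which together phosphorylate RNA polymerase II and cell cycle kinases, fell with slopes of -0.50 ± 0.12 and -0.97 ± 0.12. The call of cdk7 was lost without the library at 2.5 hpf (-0.50) or at 6 hpf (-0.43). The kinetochore gene nuf2 was the member of this group that missed the threshold, with a slope of -0.39 ± 0.19 (adjusted p = 0.139).

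Transcription and chromatin genes were 13 members, and all fell after alpha-amanitin. They include 4 genes of Mediator, the complex that links activators to RNA polymerase II (med4, med13b, med16 and med19b), the snRNA transcription factor ice1, and bmi1b and pcgf1 of the Polycomb group. med19b had the steepest slope of the 200 members, at -1.52 ± 0.15 per hour. ice1 was at 46.1 TPM at 4 hpf, 8.83 TPM at 5 hpf and 2.41 TPM at 6 hpf after alpha-amanitin, and at 35.5, 9.35 and 7.58 TPM in wild-type Ribo-Zero. Genes of RNA processing and ribosome biogenesis made up 17 members, 16 of which fell after alpha-amanitin while 10 fell and 1, the ribosome maturation kinase riok2, rose in wild-type Ribo-Zero libraries, or 7 and 2 with scaling over maternal genes. The calls of riok2 rested on single libraries: the wild-type slope of 0.20 was not called without 7 hpf (0.18) or 8 hpf (0.16), nor the alpha-amanitin slope of -0.65 without 2.5 hpf (-0.61). Of 8 members that encode mitochondrial proteins, 7 fell after alpha-amanitin, and mrpl1 missed the threshold at -0.37 ± 0.15 (adjusted p = 0.0729).

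Oocyte and egg factors had the steepest median wild-type slopes of the groups by role, also with scaling over maternal genes. All 5, bmp15, buc2l, btg4, slbp2 and kpna7, fell in every profile, and their median slope was -0.94 per hour after alpha-amanitin, -1.41 in wild-type Ribo-Zero and -1.51 in wild-type poly(A) libraries. The group holds members only, so it does not describe oocyte factors in general. On a list of such factors drawn up from textbook functions, 13 of the 31 genes tested fell and 2 rose after alpha-amanitin. Their median slope was -0.09 per hour. btg4 recruits the deadenylase complex to mRNAs in mammalian eggs, slbp2 binds the stem-loop of histone mRNAs in oocytes, and kpna7 is the importin alpha of the oocyte. btg4 was at 200 TPM at 4 hpf, 57.9 TPM at 5 hpf, 28.7 TPM at 6 hpf and 25.9 TPM at 7 hpf after alpha-amanitin. Its wild-type poly(A) level at the same hours was 130, 40.5, 4.52 and 1.04 TPM, and the Ribo-Zero level was 130, 32.1, 3.46 and 1.67 TPM. slbp2 was at 26.5 TPM at 6 hpf after alpha-amanitin against 2.88 TPM in wild-type poly(A), and kpna7 at 17.3 against 5.87 TPM. The claudin gene cldng, the second most abundant member at 716 TPM in the egg, followed the same course, with 62.0 TPM after alpha-amanitin and 20.4 TPM in wild-type poly(A) libraries at 6 hpf. At 6 hpf, with 1 library per condition, all 6 of these genes were higher after alpha-amanitin, but so were many others: 46.5% of the other eligible genes were at least 2-fold higher there. With both libraries scaled over maternal genes the ratio of treated to untreated level was 4.60 for slbp2, 3.29 for buc2l and 3.17 for btg4, and 1.498, 1.48 and 1.52 for bmp15, kpna7 and cldng. None of the 5 oocyte factors passed the test of the slope difference, which ran from 0.26 to 0.66 log2 units per hour. The plot of single members by library shows these courses side by side.

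**Figure D2:**
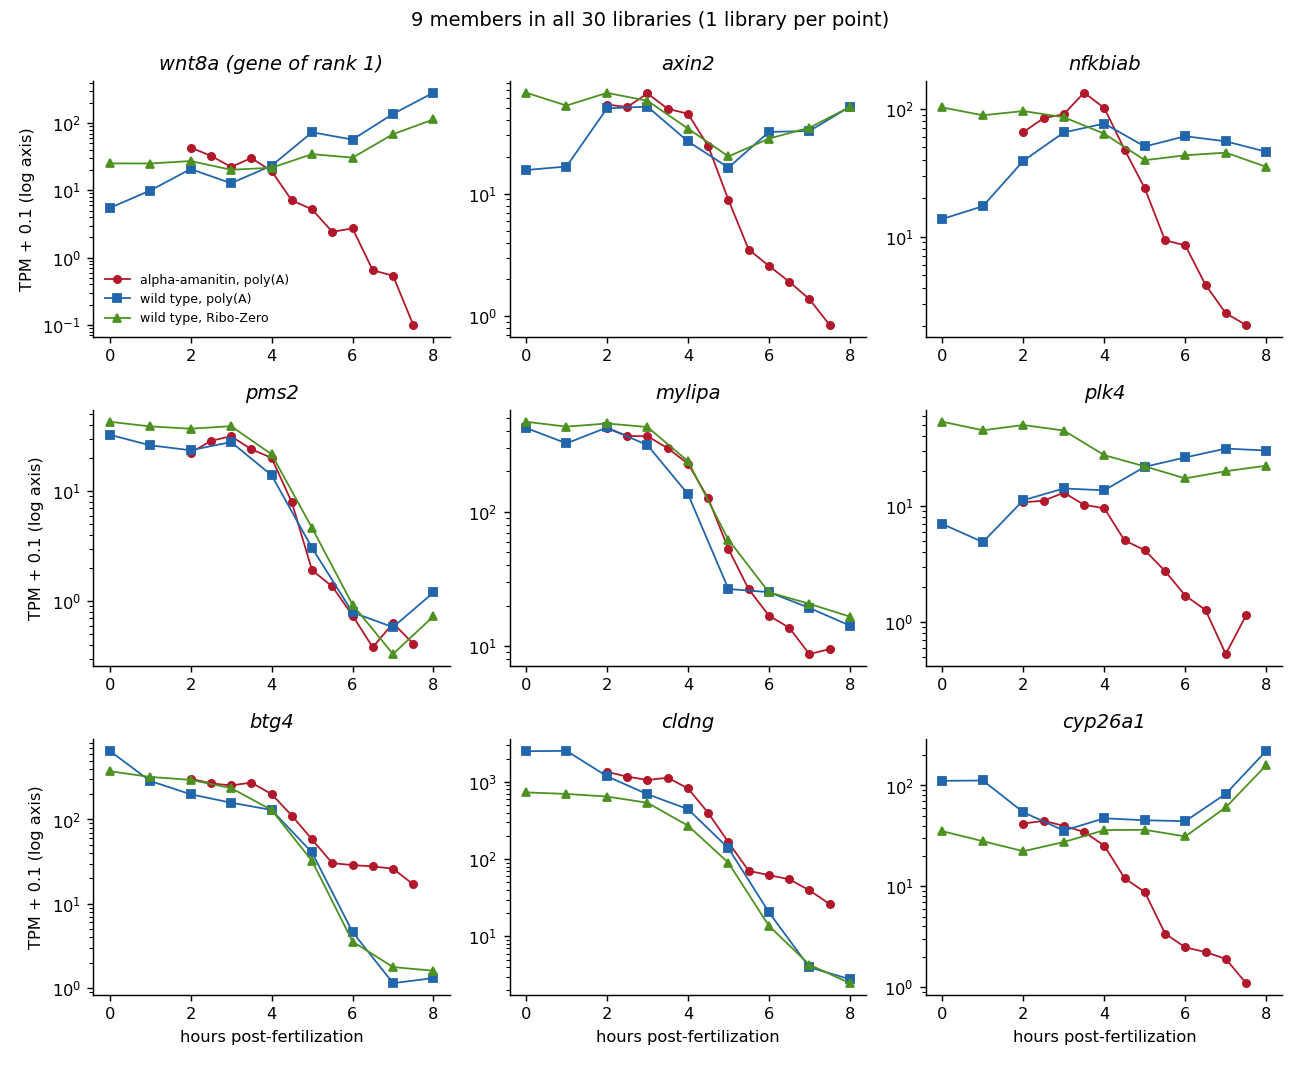
TPM plus 0.1 (log axis) of 9 members in alpha-amanitin poly(A) (red circles), wild-type poly(A) (blue squares) and wild-type Ribo-Zero libraries (green triangles) against hours post-fertilization, 1 library per point. Red lines drop after 4 hpf in all 9 panels, the wild-type lines drop with them for pms2, mylipa, btg4 and cldng, and they turn up for wnt8a, where the Ribo-Zero level reached 113 TPM at 8 hpf, and for cyp26a1, where it reached 159 TPM.

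With transcription on, the members as a group also went down. Their median in the Ribo-Zero libraries was 44.7 TPM at 3 hpf, 29.7 TPM at 4 hpf, 14.9 TPM at 5 hpf and 7.72 TPM at 6 hpf, and then 8.61 and 9.45 TPM at 7 and 8 hpf. From 2 to 8 hpf 167 members fell and 6 rose, with a median slope of -0.49 per hour. The background is high here, since 51.4% of all genes tested fell and 23.3% rose, and among the other eligible genes 68.8% fell and 9.86% rose with a median slope of -0.29. In the poly(A) libraries 115 members fell and 19 rose, with a median of -0.34, against 38.5% and 27.1% of all genes tested and 51.8% and 12.1% of the other eligible genes, whose median was -0.24. TPM values are shares of a library, and zygotic transcripts take a growing share of wild-type libraries. Scaling each library over maternal genes raised wild-type slopes by a median of 0.29 per hour in Ribo-Zero and 0.24 in poly(A) libraries. The scaling holds the median maternal mRNA near flat, so it also takes out any fall that maternal mRNAs share. A scaled rise or fall is therefore relative to that median and need not be a gain or loss of mRNA. After it, 93 members fell and 20 rose in the Ribo-Zero libraries, against 31.6% and 34.1% of the other eligible genes, and 64 fell and 42 rose in the poly(A) libraries, against 28.6% and 29.4%. The scaled median was -0.20 and -0.10 for the members and -0.00 and 0.00 for the other eligible genes in these profiles.

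Between 2 and 6 hpf the contrast with other maternal mRNAs was wider than over the whole window. The median log2 change in the Ribo-Zero libraries was -2.88 for the members and -1.25 for the other eligible genes, and 173 members (86.5%) were at least 2-fold lower, against 56.7%. Relative to the mean of the hours before the fall, the members stood at a median of 29.1% of their level at 5 hpf and 13.2% at 6 hpf, while other eligible genes stood at 66.4% and 42.3%. No library of these Ribo-Zero hours was used in the choice. Of the 200 members, 157 fell both after alpha-amanitin and in wild-type Ribo-Zero libraries, and 112 fell in all 3 profiles. Singly, 93.0% fell after alpha-amanitin, 83.5% in Ribo-Zero and 57.5% in poly(A) libraries, against 20.6%, 51.4% and 38.5% of all genes tested. The overlap was not counted for other genes, so no link between the falls is drawn from it. The quartiles of the slopes are drawn for each fit in the plot of slopes over time.

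**Figure D3:**
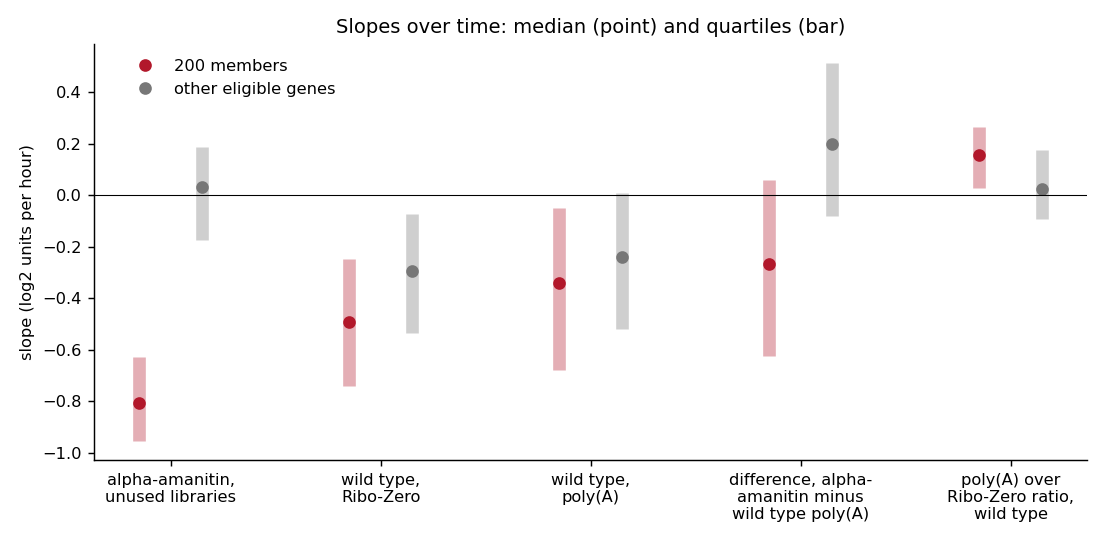
Slope over time in log2 units per hour, as median (point) and quartiles (bar), of the 200 members (red) and the other eligible genes (grey) in the 5 fits. The members lie furthest from the other genes in the alpha-amanitin libraries, with medians of -0.81 against 0.03, and the bars overlap in the wild-type fits. The gap in the alpha-amanitin fit is largely built in, because a fall in that series chose the members.

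Slopes with and without zygotic transcription were compared in a single fit over 2 to 6 hpf, with the 6 unused alpha-amanitin libraries and 5 wild-type poly(A) libraries. No library of embryos injected without alpha-amanitin is listed. Injection and the separate series therefore cannot be told apart from the block of transcription. The wild-type libraries are those of the poly(A) fit above, so both results share them. A gene is called steeper here when its slope was lower after alpha-amanitin than in wild-type poly(A), and shallower when it was higher. A steeper call therefore includes genes that rose in wild type, and outside the members it need not be a fall after alpha-amanitin. By this measure 58 members were steeper and 3 shallower. Among all genes tested 19.6% were steeper and 23.2% shallower, and among the other eligible genes 9.62% and 31.5%. The median difference was -0.27 per hour for the members and 0.20 for the other eligible genes. With libraries scaled over maternal genes, 108 members were steeper, against 23.0% of the other eligible genes and 5093 of the 15694 genes tested. The unscaled count rests partly on the last wild-type hour: without the wild-type library at 6 hpf it was 35. The count of shallower members was 0 without that library and 23 without the wild-type library at 2 hpf. No share of other genes is given for these fits, so they do not show how the members differ from other genes. At 6 hpf itself, with 1 library per condition and no test, 99 members were at least 2-fold lower after alpha-amanitin than in wild-type poly(A) and 41 were at least 2-fold higher, against 12.3% and 46.5% of the other eligible genes. The members were chosen by a fall after alpha-amanitin, whatever they did in wild type. An excess of steeper slopes, or of lower levels at 6 hpf, is therefore partly built in by the choice. A wild-type level that stays up can reflect renewal by zygotic transcription or slower removal, which cannot be told apart in these profiles. In poly(A) libraries it can also reflect a gain in poly(A) capture, which was not tested as a source of these differences. Of the 58 steeper members, 30 fell in wild-type Ribo-Zero libraries and 28 did not. In those libraries 83.5% of all members, 68.8% of the other eligible genes and 51.4% of all genes tested fell. A smaller share among the steeper members is partly built in, since a wild-type poly(A) level that stays up favours their call. plk4 and cdk7 had wild-type slopes of 0.27 and 0.25 by poly(A) and -0.23 and -0.29 by Ribo-Zero.

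The 5 widest gaps belonged to members whose wild-type poly(A) level went up. si:dkeyp-2e4.3 was at 26.5 TPM at 4 hpf, 103 TPM at 5 hpf and 184 TPM at 6 hpf in wild-type poly(A), and at 29.7, 8.47 and 2.88 TPM after alpha-amanitin, a slope difference of -1.67 ± 0.24 (adjusted p = 0.000801). For wnt8a the difference was -1.62 ± 0.19 (adjusted p = 0.000523). arl5c, an ARF-like GTPase, was at 50.4 TPM at 4 hpf and 134 TPM at 6 hpf in wild-type poly(A), against 42.5 and 3.49 TPM, with a difference of -1.56 ± 0.17 (adjusted p = 0.000433). The RNA helicase ddx49 followed at -1.34 ± 0.26 (adjusted p = 0.00242), and wu:fb55g09 at -1.33, a call that was lost without the wild-type library at 2 hpf (-1.20) or 6 hpf (-1.20). In the Ribo-Zero libraries these last genes did not go up over the same hours: ddx49 was at 35.3, 15.2 and 18.9 TPM and wu:fb55g09 at 17.1, 12.02 and 11.0 TPM at 2, 4 and 6 hpf. At the other end stood micall2b at 0.81 ± 0.19 (adjusted p = 0.00571) and zgc:56231 at 0.66 ± 0.21 (adjusted p = 0.0257). micall2b was at 160 TPM at 4.5 hpf and 25.7 TPM at 6 hpf after alpha-amanitin, and at 79.5 TPM at 4 hpf and 5.97 TPM at 6 hpf in wild-type poly(A). Without the wild-type library at 6 hpf neither was called, with differences of 0.72 and 0.38, and zgc:56231 was also not called without the alpha-amanitin library at 2 hpf (0.55) or 2.5 hpf (0.68) or the wild-type library at 3 hpf (0.60).

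**Figure D4:**
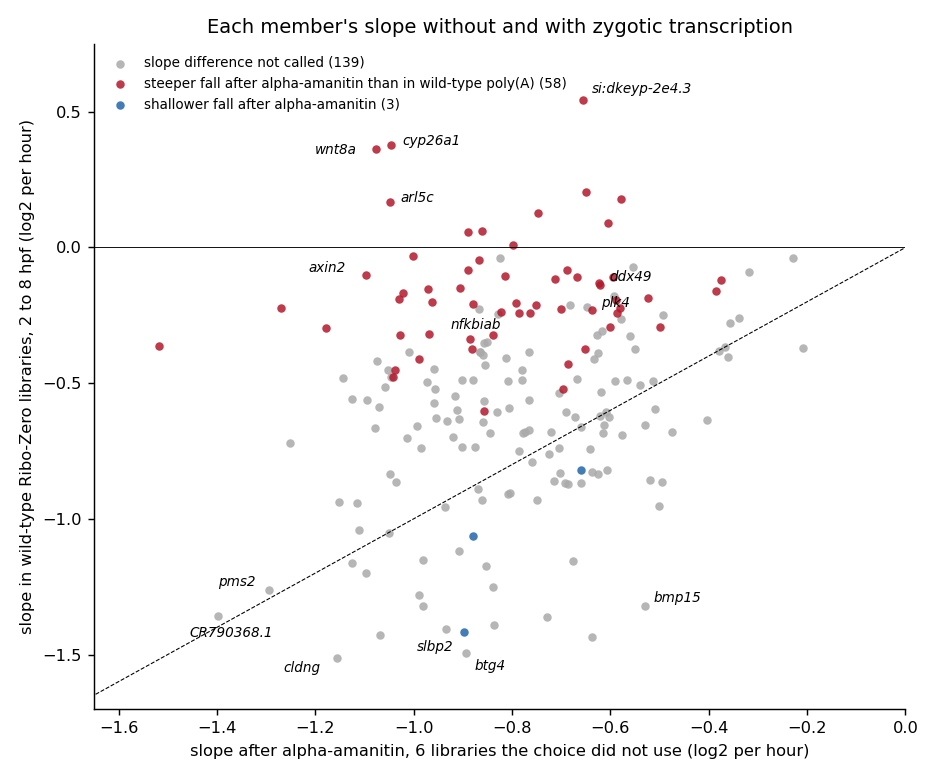
Each of the 200 members by its slope after alpha-amanitin in the 6 libraries the choice did not use (x axis) and its slope in wild-type Ribo-Zero libraries from 2 to 8 hpf (y axis), both in log2 units per hour, with the line of equal slopes dashed. Red points are the 58 members with a lower slope after alpha-amanitin than in wild-type poly(A), which may have risen there, and blue points the 3 with a higher slope. The oocyte factors btg4, slbp2 and bmp15 and the claudin cldng lie below the dashed line, and wnt8a and cyp26a1 lie above 0.

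The 6 members that rose in wild-type Ribo-Zero libraries were wnt8a, arl5c, cyp26a1, CU695223.1, si:dkeyp-2e4.3 and riok2. cyp26a1, the enzyme that breaks down retinoic acid, was at 22.2 TPM at 2 hpf, 36.0 TPM at 4 hpf, 31.1 TPM at 6 hpf and 159 TPM at 8 hpf, and after alpha-amanitin at 25.2 TPM at 4 hpf and 2.37 TPM at 6 hpf. Its wild-type slope was 0.38 ± 0.09 per hour (adjusted p = 0.00533). From 6 to 8 hpf 33 members (16.5%) gained at least 2-fold in the Ribo-Zero libraries, against 6.49% of the other eligible genes, and 34 (17.0%) against 6.26% in the poly(A) libraries. Of the 173 members that had been at least 2-fold lower at 6 than at 2 hpf, 30 (17.3%) gained at least 2-fold afterwards, against 8.42% of such genes among the other eligible ones. The same 6 hpf library picked the lower genes and is the base of the gain. A level that was low there by scatter therefore counts as a fall and then as a gain, in both sets. The members also had a lower Ribo-Zero median at 6 hpf than the other eligible genes, 7.72 against 20.04 TPM. The sets were not matched in level, so no excess of gains is read as particular to the members. The 30 members include znrf3 and mycb, the latter at 3.23 TPM at 6 hpf and 11.4 TPM at 8 hpf. By contrast, wnt8a of rank 1 and cyp26a1 had not been lower at 6 than at 2 hpf. At the other extreme, 57 members (28.5%) were at 8 hpf below 10% of their 2 hpf Ribo-Zero level, against 15.1% of the other eligible genes. They include cldng, at 647 TPM at 2 hpf and 2.38 TPM at 8 hpf, CR790368.1, the most abundant member in the egg, at 484 and 2.49 TPM, and slbp2, at 282 and 1.24 TPM.

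Poly(A) selection and Ribo-Zero depletion gave different levels at the same hours, and this gap changed over time. The median log2 ratio of poly(A) to Ribo-Zero TPM of the members was -1.56, -0.37, 0.19 and 0.55 in the samples of 0, 2, 4 and 6 hpf. Other eligible genes started alike, at -1.60, and then had medians of 0.05, 0.49 and 0.45. At 5 hpf the medians were 0.21 for the members and 0.52 for the other eligible genes. So by the medians the members were captured less well than other maternal mRNAs from 1 to 5 hpf and slightly better from 6 hpf on. The quartiles of both sets overlapped throughout. Over 2 to 8 hpf the ratio rose for 75 members and fell for 5, against 15.2% and 6.74% of all genes tested and 19.0% and 8.79% of the other eligible genes. This count depended on single hours, early and late: it was 18 without 2 hpf, 33 without 3 hpf, 45 without 7 hpf and 48 without 6 hpf. The 5 became 1 without 2, 3 or 7 hpf and 2 without 4 or 6 hpf. From 4 to 8 hpf alone 1 member rose. These fits hold fewer libraries, and no share of other genes is given for them. They show how far the calls depend on the hours, not how the members differ from other genes. The members with the steepest rise were wnt8a (the second entry), ddx49, nuf2, mrpl1 and cdk7, with slopes from 0.54 to 0.66 per hour. The call of ddx49 was lost without 2 hpf (0.37), as was that of mrpl1, and that of the wnt8a entry without 3, 7 or 8 hpf. cdk7 was at 14.8 TPM in poly(A) and 67.4 TPM in Ribo-Zero at 2 hpf, and at 43.2 and 21.1 TPM at 8 hpf.

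**Figure D5:**
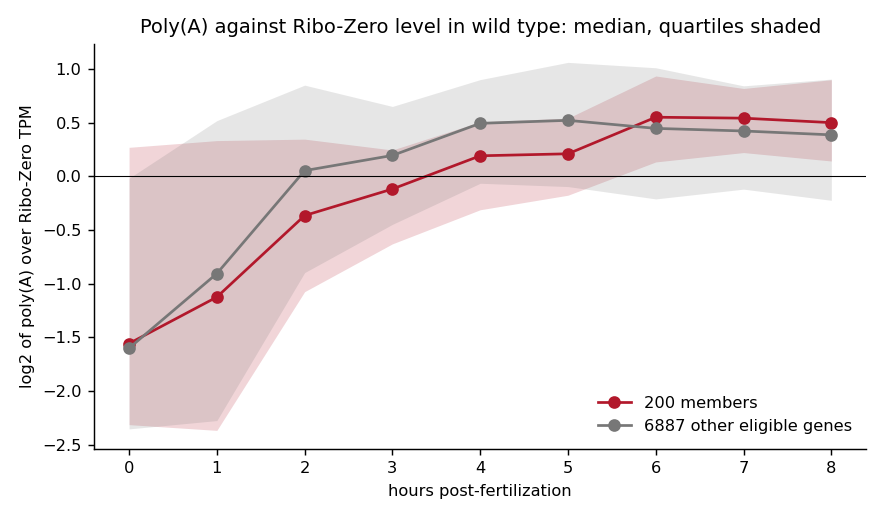
Log2 of poly(A) over Ribo-Zero TPM in wild-type embryos against hours post-fertilization, as median (points) and quartiles (shaded) over the 200 members (red) and the 6887 other eligible genes (grey), 1 library of each kind per hour. The members go from -1.56 at 0 hpf to 0.55 at 6 hpf and cross the other genes between 5 and 6 hpf.

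Gene lists drawn up from textbook functions place the members among other maternal genes. The lists were chosen with earlier results of these data known, so they are not independent of them. Over all eligible genes 2.82% are members. On the list of oocyte and egg factors 4 of 26 eligible genes are members (btg4, bmp15, slbp2 and kpna7), on that of maternal patterning and genome activation factors 3 of 34 (bmpr1ab and both wnt8a entries), and on that of cell cycle and spindle genes 3 of 65 (plk4, ccnh and cdk7). The znf zinc finger family gave 7 of 67. These shares are descriptions with no test. Lists with no member include 0 of 77 eligible cytoplasmic ribosomal protein genes, 0 of 38 proteasome genes, 0 of 37 histone genes, 0 of 34 Rab GTPase genes, 0 of 30 F-box genes, 0 of 30 genes of translational control and 0 of 20 germ plasm genes, and at a background of 2.82% lists of this size hold few members or none. A list with no member need not be steady: of 82 cytoplasmic ribosomal protein genes tested, 64 fell and 2 rose in the unused alpha-amanitin libraries. Their median slope was -0.25 per hour. Of the 49 eligible factors of deadenylation, decapping and decay, the machinery that removes mRNAs, btg4 was the single member (2.04%), close to the background. Of the 63 tested on that list 7 fell and 30 rose after alpha-amanitin in the unused libraries, where 20.6% of all genes tested fell and 21.8% rose. Among the eligible genes that are not members 23.1% fell and 29.5% rose. TPM are shares of a poly(A)-selected library, so a rise there need not mean more mRNA.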

How the data were processed

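RNA-seq libraries of zebrafish embryos were used: 12 alpha-amanitin poly(A), 9 wild-type poly(A) and 9 wild-type Ribo-Zero libraries. The authors demultiplexed reads with bcl2fastq 2.18, aligned them to danRer11 with STAR 2.7.3a, estimated expression by RSEM against Ensembl annotation and deposited TPM values rounded to 2 decimals. TPM keep no read depth, so no count test was run and depth per library is unknown.

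With limma 3.58.1 (R 4.3.3), log2(TPM + 0.1) was regressed on hours using a trended empirical Bayes prior, two-sided tests and Benjamini-Hochberg adjustment at 0.05. Genes averaging at least 1 TPM within a fit were kept. Adding 0.1 understates changes of low genes, and SE is the standard error of a slope. With 1 library per hour, p-values measure scatter around a line, curvature included, not the spread between clutches. Python 3.11.15, numpy 2.4.6, pandas 2.3.3 and matplotlib 3.10.9 were used for tables and figures.

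The members and lists were chosen with earlier results of these data known. Named genes are the 20 lowest ratios, members on the lists of functions, the 3 genes on each side of the border, the 5 most abundant, and the 5 lowest and 5 highest in slope difference, wild-type Ribo-Zero slope and capture slope. Other genes, from the groups by role or among late returns, were picked after seeing their values. Alternatives were pseudocounts of 0.01 and 1, no filter or a mean of at least 5 TPM, scaling by the median ratio over genes with at least 5 TPM in the egg, other windows, other rules of choice, and leaving out each library. The comparison at 6 hpf alone was also added later. Of the members, 192 were in the table of gene names. Sequences were not analysed here.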

Additional observations from a re-analysis of the deposited data

Results flagged for a closer look

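The change over time differed between treatments, by the test of the slope difference itself, for 58 members with a lower slope after alpha-amanitin than in wild-type poly(A) libraries (the steeper side). For 3 members the slope was higher after alpha-amanitin. Since a fall after alpha-amanitin chose the members, an excess on the steeper side is partly built in. Among the members with the widest differences, those past the threshold were si:dkeyp-2e4.3 (-1.67 log2 units per hour), wnt8a (-1.62), arl5c (-1.56), ddx49 (-1.34) and wu:fb55g09 (-1.33) on the steeper side, and micall2b (0.81) and zgc:56231 (0.66) on the other.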

How the results depend on the processing

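All 200 slopes of the members were negative after alpha-amanitin, and their median of -0.81 per hour ranged from -0.95 to -0.71 when each library was left out and was -1.66 from 4.5 to 6 hpf only. In wild-type Ribo-Zero libraries 78 members fell from 4 to 8 hpf (median -0.38), 2 rose from 3 to 6 hpf (median -0.96), and with scaling over maternal genes 93 fell and 20 rose (median -0.20). That median was -0.64 to -0.45 when each library was left out. In wild-type poly(A) libraries 60 fell and 11 rose from 4 to 8 hpf, 5 rose from 3 to 6 hpf (median -0.70), and 64 fell and 42 rose with scaling (median -0.10). For the windows of 4 to 8 and 3 to 6 hpf no share of other genes is given, and falls from 3 to 6 hpf are left out. These window counts show how far the calls depend on the window, not how the members differ from other genes. The window of 3 to 6 hpf was chosen after seeing the data, as was leaving libraries out of the choice of members.

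The slope difference was steeper after alpha-amanitin for 91 members and shallower for 6 with both treatments at 2 to 7 hpf. That window takes in alpha-amanitin libraries that chose the members, so its count of steeper members is partly built in by the choice. No share of other genes is given for it. In the fit over 2 to 6 hpf without those libraries, the difference was steeper for 108 members with scaling, against 5093 of the 15694 genes tested. Leaving out each library of that fit, unscaled, gave 35 to 68 steeper and 0 to 23 shallower. For these fits too no share of other genes is given, so the counts show only how far the calls depend on single libraries. The ratio of poly(A) to Ribo-Zero rose for 1 and fell for 0 members in limma from 4 to 8 hpf. Without the filter it rose for 45 and fell for 1. Leaving out each library gave 18 to 75 rises and 1 to 6 falls. No share of other genes is given for these settings of the ratio. The ratio with scaling rose for 65 members and fell for 10. Among the 6873 other eligible genes tested it rose for 1226 and fell for 1214. Among all 15521 genes tested it rose for 2267 and fell for 2127. With scaling, 46 of the 189 negative wild-type Ribo-Zero slopes of members became positive, 25 of them among the 167 called, and of the genes named by rule these were nfkbiab (0.0538), cdk7 (0.0002), plk4 (0.0625), toporsa (0.0726) and ddit4 (0.048). By the construction of the scaling the median maternal mRNA is held near flat. Wild-type slopes therefore shift upward together, and signs after it are relative to that median. The cause of the other changes was not tested.

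Other rules of choice kept 173 members with a pseudocount of 1, 165 with the slope over all 12 libraries, 154 with an eligibility level of 10 TPM, 142 with a late window of 5 to 6 hpf, 101 with a level of 50 TPM (all members that reach it), and 188 to 194 when each library was left out. No paired analysis was possible because the labels give no replicate that is shared between conditions at an hour, beyond the hour-by-hour ratio of poly(A) to Ribo-Zero.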
